A study of Arabidopsis thaliana with 24 samples.

Results

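AT1G72920, AT1G17615 and AT1G33950 are 3 genes of Arabidopsis thaliana with ties to plant immunity, and they are 3 of 13286 genes that the array annotation names. They were chosen by their levels over the 6 groups of the study, which were already known to differ, so the values that selected them are the very levels given here. Each is read by 1 probe set (262382_at, 260713_at and 260117_at) out of 22810 on the array. Their levels are therefore described without a test, and tests are given for related genes. The lists of related genes were also drawn up with earlier results of these data known.

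RNA of whole rosettes was hybridized to 24 ATH1 arrays, 4 for each of 6 groups. Col-0, the wild type, and the mutant of MILDEW-INDUCED LESIONS 4, mil4, were each treated with a spray of water or of 300 µM BTH. Single sid2 mutants and mil4 sid2 double mutants received water. All plants grew at 22 °C under a 14 h photoperiod, received their spray 2 days before harvest and were harvested at 4 weeks of age. The sources used here do not state the alleles of mil4 and sid2, the number of plants in a sample or any pooling, so the p-values measure the spread between samples that the titles call biological replicates.

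BTH (benzothiadiazole) is a synthetic analogue of salicylic acid, the hormone that switches on defence genes after attack by biotrophic pathogens. In sid2 plants the mutated gene is ICS1, for isochorismate synthase, which makes most of the salicylic acid of infected leaves. TIR domains (Toll/interleukin-1 receptor) stand at the front of a large class of plant immune receptors, most of which go on to a nucleotide-binding (NBS) domain and leucine-rich repeats (LRR). They are enzymes that cleave NAD+, and the small molecules they make act through EDS1 with PAD4 or SAG101 and the helper receptors of the ADR1 and NRG1 families. Some TIR genes lack the repeats and encode a TIR domain alone or with an NBS domain.

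AT1G72920 encodes such a short TIR protein and sits in a run of TIR genes on chromosome 1. AT1G17615, also called TN2, encodes a TIR-NBS protein without repeats, and in plants that lack the exocyst subunit EXO70B1 it is needed for their spontaneous cell death. In the gene order of RefSeq assembly TAIR10.1 it follows AT1G17600 (SOC3) and AT1G17610 (CHS1), TIR receptor genes known to work with it or with each other. AT1G33950 encodes a GTPase of the IAN family (immune-associated nucleotide-binding, or AIG1-like). It lies next to AIG1, a gene first found through its induction by a bacterial effector, and AIG1 had no named probe set here.

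The 24 arrays had each been scaled to the same trimmed mean (500 to 500.1), with medians of 151.9 to 185, and 9.61% to 17.93% of probe sets lay under an intensity of 16. The highest median and the lowest of these shares were both on sid2 replicate 1. All other arrays had medians of at most 175.7 and shares of at least 14.2%. For GAPDH the 3′ signal over the 5′ signal, a measure of RNA integrity, ran from 0.6514 to 1.648. A gene is called measured here if a probe set carries its name alone. Other genes may still be read by probe sets that are unnamed here or name several genes. Of 11 leaf markers 1 was measured, RCA (rubisco activase), with group means of 14.45 to 14.73 on the log2 scale. Of 8 root markers 1 was measured, EXPA7 (a root-hair expansin), at 4.82 to 5.56, near the dim end, and none of 6 flower markers was measured. MIL4 and ICS1 had no named probe set, so no array could be checked for its genotype. The sid2 and mil4 sid2 arrays were hybridized on a day of their own, so for their comparisons with Col or mil4 the genotype and the day cannot be told apart. In a whole rosette, more cells with a transcript and more of it per cell also cannot be told apart.

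AT1G72920 was brighter in wild-type rosettes than in all 3 mutants given water. It lay at percentiles 54.7 to 73.3 of its array in Col with water, and at 15.4 to 44.5 in those mutants. In Col with water its intensities on replicates 1 to 4 were 407.6, 510, 203.3 and 356.6. In mil4 with water they were 57.2, 65.8, 22.6 and 67.5. The brightest mil4 array was thus well below the dimmest Col array. On the scale used for all differences, log2 of the intensity plus 16, the mean was 8.52 ± 0.54 (SD, n = 4) in Col and 6.05 ± 0.53 in mil4, a difference of -2.47 (SE 0.29) or 5.54-fold. AT1G72920 was the 1 gene of the 3 whose mil4 and Col arrays did not overlap with water. Of all probe sets, 11.7% had no overlap there in either direction.

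With BTH the arrays of mil4 overlapped those of Col for AT1G72920. The intensities in mil4 with BTH were 180.1, 215.8, 225.5 and 155 (7.7 ± 0.23), and all 4 lay above every mil4 array with water. The difference from water in mil4 was 1.65 (SE 0.29), or 3.14-fold. In Col with BTH the intensities were 331.7, 227.9, 268.6 and 157.3 (7.99 ± 0.42), which overlapped those of Col with water and differed from them by -0.53 (SE 0.29). With BTH, mil4 and Col also overlapped and differed by -0.29 (SE 0.29). The response of AT1G72920 to BTH was higher in mil4 than in Col by 2.18 (SE 0.42). Arrays of Col and mil4 were spread over 3 hybridization days, and within these days the difference of mil4 from Col with water was -2.89, -2.34 and -2.77.

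The single sid2 mutant had as little AT1G72920 signal as mil4, and the double mutant somewhat more than either. The intensities in sid2 were 23.7, 77.2, 57.6 and 70.2 (6.12 ± 0.56), against Col a difference of -2.4 (SE 0.29) or 5.28-fold. In mil4 sid2 they were 98.6, 123, 94.7 and 92.8 (6.88 ± 0.16). All 4 double-mutant arrays lay above all arrays of mil4 with water, by 0.83 on average (SE 0.29), and above all sid2 arrays, by 0.76. The last comparison was made within 1 hybridization day. The sum of the separate mil4 and sid2 differences was lower than the difference of the double mutant from Col by 3.23 (SE 0.42), the interaction of the mutations.

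In order of level, AT1G72920 ran from Col with water through Col with BTH, mil4 with BTH, mil4 sid2 and sid2 to mil4 with water. The first 3 of these groups overlapped with one another in order, and so did sid2 and mil4 with water. The mil4 sid2 arrays overlapped neither with mil4 with BTH nor with sid2. The 12 water-treated mutant arrays all lay below the 12 other arrays. Of all probe sets tested, 0.514% (117) had that arrangement, and nothing is read from that share, since the pattern was known when the gene was chosen.

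AT1G17615 was near the bottom of the scale in 4 of the 6 groups and highest in mil4 with BTH. Its intensities in Col were 1.3, 1, 5.3 and 1.4 with water (4.18 ± 0.15) and 14.9, 2.7, 2.8 and 7.1 with BTH (4.48 ± 0.34). In mil4 with water they were 13.5, 2.3, 2 and 0.9 (4.33 ± 0.37). In mil4 with BTH they were 59.1, 49.6, 207.2 and 66.9 (6.61 ± 0.81). Each BTH-treated mil4 array lay above all 20 other arrays, an arrangement seen in 1.65% of probe sets (375), and replicate 3 lay well above the other 3.

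The difference of mil4 with BTH from mil4 with water was 2.28 (SE 0.28), or 4.85-fold, and that from Col with BTH 2.13 (SE 0.28), or 4.37-fold. BTH in Col gave 0.3 (SE 0.28), with overlap, and the response in mil4 was higher by 1.98 (SE 0.4). Without mil4 BTH replicate 3 the first 2 differences were 1.88 and 1.73. As 16 of the 24 arrays lay under an intensity of 16, the size depends on the added constant: with 1 in place of 16 the difference of BTH from water in mil4 was 4.32, and with 64 it was 1.12. Within the 3 hybridization days it was 3.63, 2.29 and 1.59.

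The sid2 mutant was the other group in which AT1G17615 left the bottom of the scale. Its intensities there were 31, 42.6, 20.5 and 26.3 (5.5 ± 0.29), above every array of Col. The difference from Col was 1.32 (SE 0.28), or 2.5-fold on this scale, 3.38 with a constant of 1 and 0.5 with a constant of 64. In mil4 sid2 the intensities were back at 2.4, 1.6, 4.5 and 4.9 (4.27 ± 0.12), below all sid2 arrays, a difference of -1.23 (SE 0.28). Both mutants were hybridized on the same day. In order of level, mil4 with BTH, sid2 and Col with BTH did not overlap, while Col with BTH, mil4 with water, mil4 sid2 and Col with water overlapped with their neighbours.

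AT1G33950, the GTPase gene, was highest in mil4 with BTH, with no overlap with any other group. There its intensities were 195.4, 133.5, 358.3 and 164.9 (7.75 ± 0.57). In mil4 with water they were 2.7, 22.6, 27.2 and 30.5 (5.12 ± 0.6), in Col with water 8.4, 7.6, 16.2 and 43.5 (5.02 ± 0.62), and in Col with BTH 17.6, 32, 31.1 and 29.5 (5.43 ± 0.24). The dimmest BTH-treated mil4 array was thus well above the brightest array of these groups. In mil4 the difference of BTH from water was 2.63 (SE 0.38), or 6.2-fold, and with BTH the difference of mil4 from Col was 2.32 (SE 0.38), or 4.99-fold. In Col, BTH gave 0.41 (SE 0.38), with overlap, and the difference of the responses was 2.22 (SE 0.54).

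With water, the arrays of all 4 genotypes overlapped for AT1G33950. The intensities in sid2 were 17.2, 6.3, 17.1 and 16.4 (4.9 ± 0.28), and in mil4 sid2 they were 24.5, 62.1, 36.7 and 3.6 (5.41 ± 0.84). The difference of sid2 from Col was -0.12 and that of mil4 sid2 from mil4 0.29 (SE 0.38 for each). Among the 5 groups other than mil4 with BTH, neighbours in order differed by 0.02 to 0.29, all with overlap. Without mil4 BTH replicate 3, the brightest array, the difference of BTH from water in mil4 was 2.37, and with a constant of 64 it was 1.66.

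**Figure D1:**
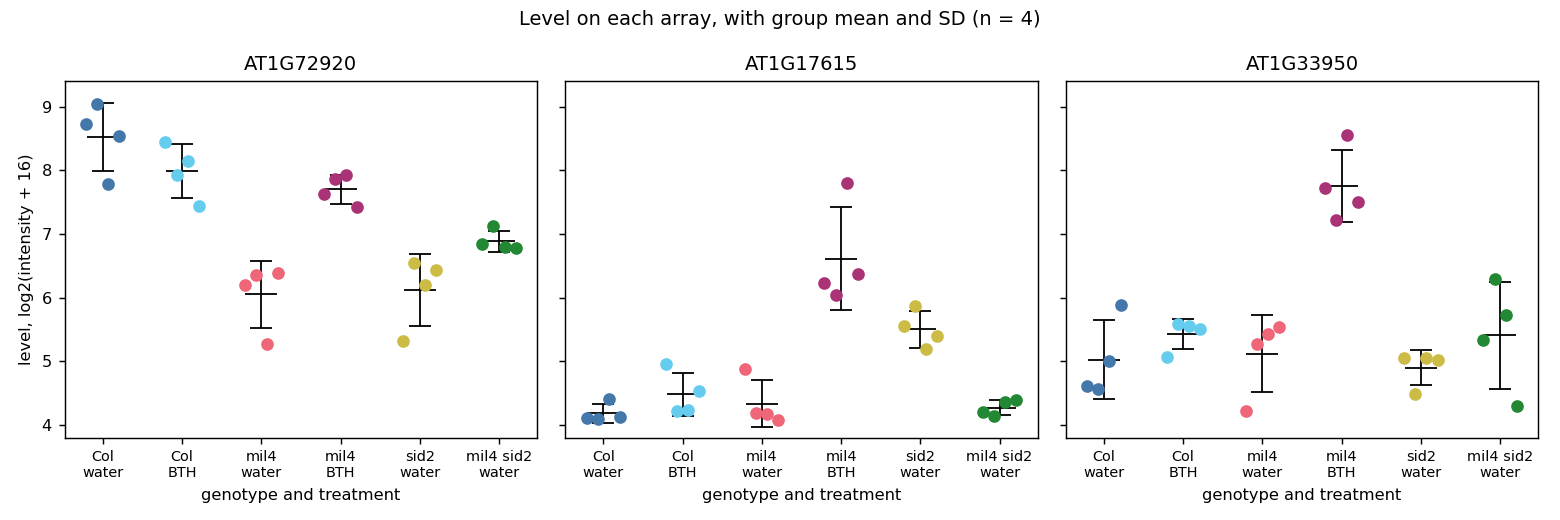
Level of AT1G72920, AT1G17615 and AT1G33950 on each of the 24 arrays, as log2 of the intensity plus 16, by genotype and treatment. Points are arrays, and bars are the group mean and SD (n = 4); AT1G72920 is low in the water-treated mutants, whereas AT1G17615 and AT1G33950 are highest in mil4 with BTH.

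Set side by side, the 3 genes had in common a higher level with BTH than with water in mil4, with no overlap for 3 of 3, and overlap in Col for 3 of 3. The arrangement without overlap was found in 20.2% of all probe sets in mil4 and 17.9% in Col. Between mil4 and Col with BTH it held for 2 of 3 (9.91% of probe sets) and between sid2 and Col for 2 of 3 (17.3%). For mil4 sid2 it held for 1 of 3 against mil4 (13.2%) and for 2 of 3 against sid2 (7.76%). These shares are printed as the background alone, since the same levels chose the genes. AT1G72920 was high in Col with water where AT1G17615 and AT1G33950 were at their dim levels, and in sid2 AT1G72920 was lower and AT1G17615 higher than in Col. Across the 24 arrays r was 0.66 between AT1G17615 and AT1G33950, but -0.42 over the 20 arrays without mil4 BTH and 0 between deviations from the group means. AT1G72920 had an r of -0.03 with AT1G17615 and 0.22 with AT1G33950.

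The TIR genes beside AT1G72920 were then tested. Their own levels did not select the described genes, but this list, too, was drawn up with earlier results of these data known. Of the 10 other genes of the run, 8 were measured, each by 1 probe set. In mil4, 5 of the 8 rose with BTH and none fell, with a median difference of 0.77, while 9.67% of all probe sets rose and their median was 0.05. AT1G72900 rose 3.73-fold (log2 difference 1.9, SE 0.28, adjusted p = 7.32e-05 in limma) and AT1G72890 2.83-fold (1.5, SE 0.2). AT1G72940, AT1G72950 and AT1G72860 rose by 0.89, 0.83 and 0.71. Without any 1 of 4 of the 8 arrays AT1G72950 lost its call, and without any 1 of 3 AT1G72860 did (adjusted p up to 0.095 and 0.0936). AT1G72840, AT1G72850 and AT1G72870 did not pass, with 0.36, 0.24 and 0.18. In Col none of the 8 passed (median -0.1, 1 at an unadjusted p under 0.05), where 12.7% of all probe sets did. Tested directly, the response in mil4 minus that in Col passed for 1 of the 8, AT1G72900, beside 1.01% of all probe sets. That call was lost without any 1 of 13 of the 16 arrays. Within each genotype, BTH and the fluidics module cannot be told apart.

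With water, the sid2 mutant was lower than Col in 4 of these 8 genes, with 6.82% of all probe sets called lower. AT1G72940 fell by 2.11 (SE 0.21, adjusted p = 3.48e-07), AT1G72900 by 1.24, AT1G72950 by 1.24 and AT1G72890 by 0.83. In mil4 with water 1 of 8 fell, AT1G72940, by 1.55 (SE 0.21, adjusted p = 3.57e-05), and 4.17% of all probe sets fell. AT1G72940, the next gene on the array after AT1G72920 in chromosome order, had means of 9.61 ± 0.26 in Col with water, 8.06 ± 0.15 in mil4, 7.5 ± 0.45 in sid2 and 8.19 ± 0.16 in mil4 sid2. With BTH it stood at 9.31 ± 0.22 in Col and 8.95 ± 0.39 in mil4. The mil4 by sid2 interaction passed for 3 of 8 (AT1G72940 2.24, AT1G72900 1.56 and AT1G72950 1.32, all higher), with 5.32% of all probe sets called in either direction. That call was lost for AT1G72950 without any 1 of 6 of the 16 arrays (adjusted p up to 0.0753) and for AT1G72900 without 1, Col water replicate 1 (adjusted p = 0.0508). Genes of the run are similar in sequence, and how far a probe set also reads a neighbour was not tested.

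**Figure D2:**
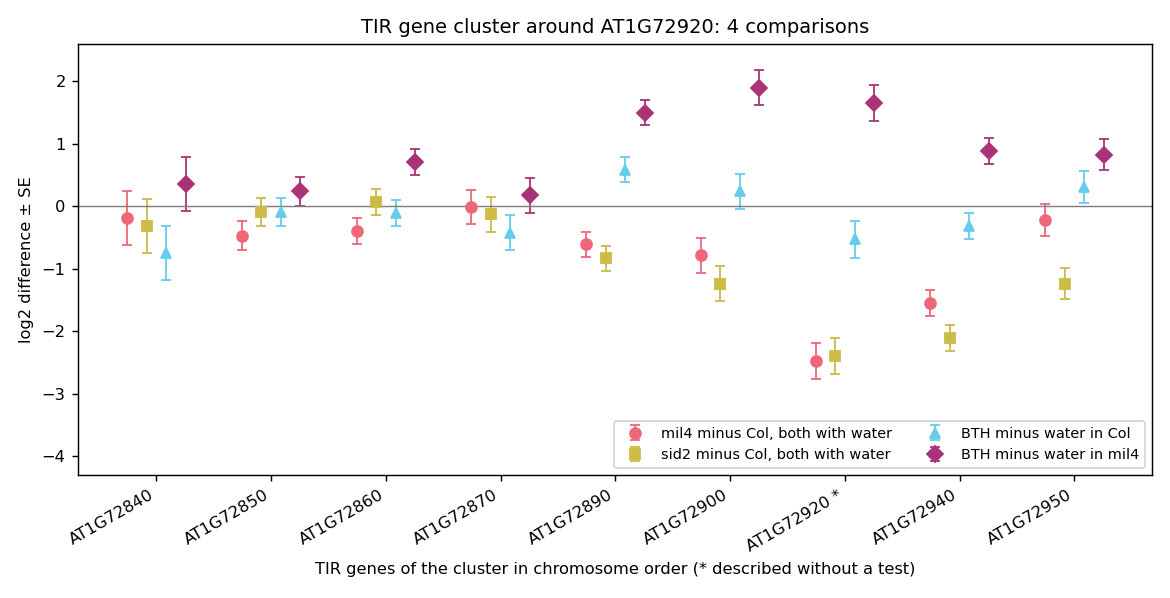
Log2 differences (± SE from the fit over 24 arrays) of the measured TIR genes of the run that holds AT1G72920, in chromosome order, for mil4 and sid2 against Col with water and for BTH against water in Col and mil4. AT1G72920 (-2.47, -2.4, -0.53 and 1.65) is shown without a test; AT1G72940 lies below 0 in both mutants and above 0 with BTH in mil4.

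Of all other TIR and IAN genes measured, 4 of 97 had the arrangement of AT1G72920, with all 12 water-treated mutant arrays below the other 12 (0.514% of all probe sets). They were AT1G72890 and AT1G72940 of the run, AT1G63880 and AT1G66090, the last 2 named after their values were seen. AT1G66090 encodes a TIR-NBS protein without repeats. Its mean was 8.57 ± 0.22 in Col with water, 8.41 ± 0.31 in Col with BTH, 7.76 ± 0.32 in mil4 with water, 9.47 ± 0.62 in mil4 with BTH, 7.44 ± 0.24 in sid2 and 7.73 ± 0.14 in mil4 sid2. It rose 3.27-fold with BTH in mil4 (1.71, SE 0.24, adjusted p = 3.49e-05) and had -0.16 in Col. The response of AT1G66090 differed between the genotypes by 1.87 (SE 0.33, adjusted p = 0.00502), and only AT1G72900 of the other TIR genes also passed (1.66, SE 0.4, adjusted p = 0.0459). Of all probe sets, 1.01% passed that interaction, and AT1G72900 lost its call when any 1 of 13 of the 16 arrays was left out (adjusted p up to 0.115). AT1G66090 also had the arrangement of AT1G17615 and AT1G33950, with all 4 BTH-treated mil4 arrays above the other 20, as did AT1G72900, AT5G51630 and AT2G32140 of the 97 (1.65% of all probe sets).

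Among the other TIR genes, nearly every call with BTH was a rise. In mil4, 24 of 86 other TIR genes rose and 1 fell (29.1% passed, 17.4% of all probe sets), with a median of 0.45. In Col 11 rose and none fell (12.8%, against 12.7% of all probe sets in either direction), with a median of 0.2 beside 0.01. Of the calls over all probe sets, 2200 of 3968 in mil4 and 1528 of 2886 in Col were rises. Of the 11, 9 also rose in mil4, which is 81.8% of the 11 and 37.5% of the 24; over all probe sets the shares were 62.6% and 43.5%. The largest difference among the receptors with repeats in mil4 was that of AT5G18350, 4.16-fold higher (2.06, SE 0.37, adjusted p = 0.000459), and the fall was that of AT4G19530 (-1.33, SE 0.23). AT3G51570 rose by 1.12 and AT5G51630 by 1.07. AT3G51570 lost its call without any 1 of 7 of the 8 arrays (adjusted p up to 0.15). In Col, AT5G36930 rose by 1.14, AT5G58120 (DM10, known from hybrid necrosis) by 0.97, AT5G51630 by 0.88 and AT3G44400 by 0.86. Same-numbered Col arrays deviated together, and with the replicate as a block 8 TIR and IAN genes passed in place of 11; AT5G58120 then lost its call (adjusted p = 0.0777).

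Of the 18 other TIR genes without repeats, 5 rose with BTH in mil4 (9.67% of all probe sets rose): AT1G66090, AT2G32140 by 1.52, AT1G60320 by 0.96, AT1G57670 by 0.89 and AT5G45000 by 0.8. AT1G57670, AT5G45000 and AT1G60320 lost their calls without any 1 of 6, 5 and 4 of the 8 arrays (adjusted p up to 0.171, 0.102 and 0.0678). In Col 1 of the 18 passed, AT5G45000 (1.04, SE 0.25, adjusted p = 0.00744), beside 12.7% of all probe sets. The BTH arrays of Col and mil4 were all processed on other fluidics modules than their water arrays. Within these genotypes BTH and module therefore cannot be told apart. A module block can separate them only through the sid2 and mil4 sid2 arrays, which were hybridized on another day. With the module as a block, 18 of the 25 calls in mil4 and 9 of the 11 in Col were lost. The differences of the 3 described genes in mil4 with that block were 1.84 for AT1G72920, 2.31 for AT1G17615 and 2.62 for AT1G33950.

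In sid2 with water 13 of the 86 other TIR genes were lower than in Col and 4 higher (19.8% passed, 13.5% of all probe sets), although their median was 0.06. AT4G16880, a gene listed with the TIR receptors and located in the RPP5 cluster, fell by 1.39, AT5G58120 by 1.36, AT2G14080 by 0.93 and AT3G44630 by 0.88. AT2G32140 fell by 1.17 and AT1G66090 by 1.13. AT1G60320 rose by 0.97 and AT4G19530 by 0.82. The calls of AT1G60320 and AT4G19530 were each lost without any 1 of 3 of the 8 arrays, and that of AT2G32140 without either of 2 (adjusted p up to 0.0953, 0.0836 and 0.0716). With the module as a block 6 of the 17 calls were lost. Of the 13 that fell, 9 rose with BTH in mil4, a comparison that shares no array with this one. This is 69.2% of the 13 and 37.5% of the 24, and over all probe sets the same shares were 24.2% and 17%. Among the 86 other TIR genes, 24 rose with BTH in mil4. Of the 9, 4 are the genes of the run around AT1G72920 given above (AT1G72890, AT1G72900, AT1G72940 and AT1G72950), whose probe sets may also read a neighbour.

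Calls among TIR genes were fewer in the other comparisons. In mil4 against Col with water 3 rose and 3 fell (6.98% passed, 7.4% of all probe sets): AT4G19530, AT1G17600 and AT3G44400 by 0.92, 0.76 and 0.66, and AT1G72940, AT4G16880 and AT1G66090, the last 2 by 1.07 and 0.81. Left out in turn, 6 of the 8 arrays ended the call of AT3G44400, 5 that of AT1G66090 and 2 that of AT4G19530 (adjusted p up to 0.102, 0.123 and 0.0571), and with the hybridization run as a block 1 of the 6 calls was left. With BTH, 3 of 86 were higher in mil4 than in Col and none was lower. Thus 3.49% passed, against 3.29% of all probe sets in either direction. The 3 were AT1G57670 by 1.11, AT1G66090 by 1.07 and AT5G51630 by 0.73, of which 1 was left with the run as a block. AT1G57670 lost its call without any 1 of 7 of the 8 arrays and AT5G51630 without any 1 of 6 (adjusted p up to 0.161 and 0.0977). In mil4 sid2 against mil4, 3 rose and 3 fell (6.98%, against 5.57%), with AT2G16870 at 1.21, AT5G58120 at -1.17, AT1G72860 at 0.93, AT5G22690 at -0.92, AT4G09420 at -0.88 and AT5G46270 at 0.57. Of the 8 arrays, any 1 of 7 ended the call of AT5G22690 and of AT4G09420 when left out, any 1 of 6 that of AT5G46270 and any 1 of 3 that of AT2G16870 (adjusted p up to 0.127, 0.103, 0.106 and 0.0771). Between mil4 sid2 and sid2 none of the 86 passed in limma, with 16 at an unadjusted p under 0.05, and 0.47% of all probe sets passed. Of the 86, 7 passed the mil4 by sid2 interaction (8.14%, against 5.32%), 5 higher and 2 lower.

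**Figure D3:**
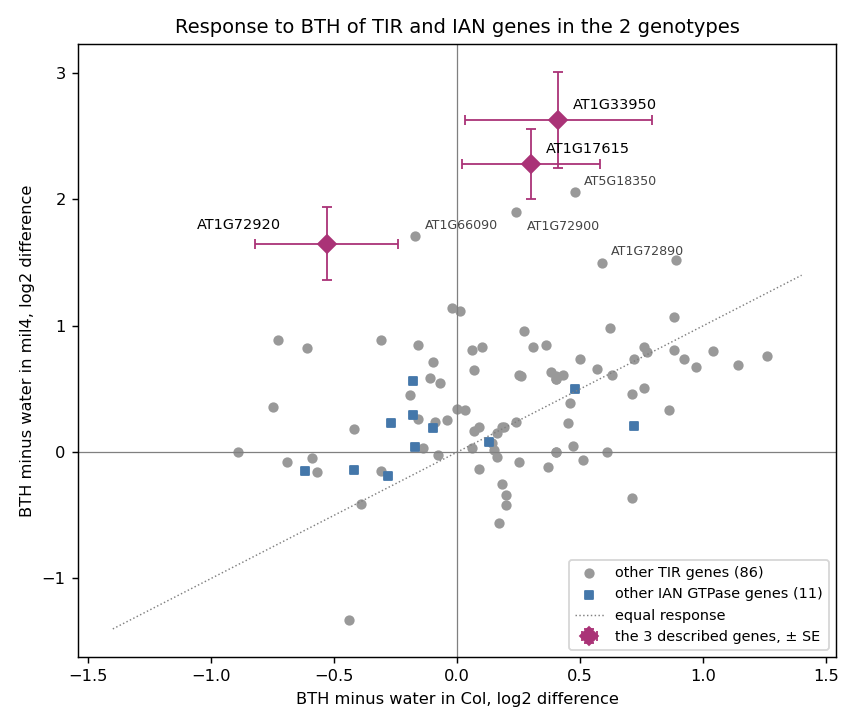
Log2 difference of BTH from water in mil4 against that in Col for 86 other TIR genes, 11 other IAN GTPase genes and the 3 described genes (± SE), each point being 1 gene. Points above the dotted line had a larger difference in mil4; AT1G33950 (0.41 in Col, 2.63 in mil4) stands above all IAN genes, which lie between -0.19 and 0.56 in mil4.

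AT1G17600, the TIR-NBS-LRR gene SOC3 near AT1G17615, was the 1 measured gene of the other 2 in that cluster. It had means of 6.32 ± 0.06 in Col with water and 7.58 ± 0.15 with BTH, a rise of 1.26 (SE 0.16, adjusted p = 1.49e-05). In mil4 it had 7.09 ± 0.37 with water and 7.84 ± 0.17 with BTH, a rise of 0.76 (SE 0.16, adjusted p = 0.00208). The response in mil4 minus that in Col was -0.51 (SE 0.23), which did not pass (adjusted p = 0.446). In sid2 AT1G17600 rose by 0.71 over Col (SE 0.16, adjusted p = 0.00388), and in mil4 sid2 it stood at 6.96 ± 0.19. The mil4 by sid2 interaction was -0.84 (SE 0.23, adjusted p = 0.0308), and this call was lost without any 1 of 9 of the 16 arrays (adjusted p up to 0.0725). With the module as a block the rise in sid2 (adjusted p = 0.0571), the rise with BTH in mil4 (adjusted p = 0.0637) and the interaction (adjusted p = 0.156) lost their calls, and the rise with BTH in Col passed (adjusted p = 0.00638).

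Of the 11 other IAN GTPase genes measured, none passed in any of the 9 comparisons in limma, and 0 to 2 had an unadjusted p under 0.05. Of all probe sets, 0.47% to 17.4% passed in these comparisons. Apart from AT1G33970 (group means of 10.04 to 10.37), the IAN genes had group means of 4.26 to 6.2, toward the dim end, where folds are understated. For the 11 genes the differences of BTH from water in mil4 lay between -0.19 and 0.56, with a median of 0.19, and the lowest adjusted p was 0.165. The measured neighbours of AT1G33950 in the family were among them. AT1G33930 had means of 5.42 in mil4 with water and 5.65 with BTH, AT1G33910 4.77 and 4.81, and AT1G33970 10.13 and 10.21. For the other genes near it, AT1G33830, AT1G33870, AT1G33880, AT1G33890 and AT1G33900, the differences of BTH from water in mil4 were -0.15, -0.19, 0.21, 0.19 and 0.29. The lowest adjusted p of all was 0.0691, for AT1G33910 in mil4 sid2 against mil4 (1.18, SE 0.37).

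Of 11 genes known to act downstream of TIR domains, 2 had a probe set that carries their name alone. SAG101 (AT5G14930), the EDS1 partner that works with NRG1 helpers, rose with BTH by 1.11 in Col (SE 0.23, adjusted p = 0.00183) and by 1.03 in mil4 (SE 0.23, adjusted p = 0.00275). AT5G66890, a truncated member of the NRG1 family, rose by 1.5 in mil4 (SE 0.33, adjusted p = 0.00293) and had 0.21 in Col. With BTH it was higher in mil4 than in Col by 1.38 (SE 0.33, adjusted p = 0.0226), but the difference of the responses, 1.29, had an adjusted p of 0.284.

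Genes with a pattern like that of each described gene were ranked by Pearson's r over the 24 arrays, among 7402 or 7403 genes with a group mean of at least 7. Since groups differ and arrays of a group share them, r is a description. The gene most like AT1G72920 was STZ, a zinc-finger repressor gene of stress responses (r = 0.913, rho = 0.886), with means of 11.59 in Col with water, 10.36 with BTH, 8.85 and 10.52 in mil4 with water and BTH, 8.99 in sid2 and 9 in mil4 sid2. It was followed by AT2G46170 (0.905), AT2G44940, which encodes an AP2/ERF transcription factor (0.895), AT1G11050 (0.892) and AT2G39650 (0.887). By rho AT2G39650 ranked at 1.

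Likeness was weaker for the other two. The gene most like AT1G17615 was AT2G21520 (r = 0.808), then AT4G01870 (0.801), AT5G66890, the NRG1 relative (0.768), AT5G28040 (0.764) and ARL (0.761), a relative of the organ-size gene ARGOS. By rho the ranks of AT4G01870 and AT5G66890 were 123 and 131. The gene most like AT1G33950 was AT3G28580 (r = 0.874, rho = 0.766), with a mean of 7.13 in mil4 with BTH and 4.36 to 5.62 in the other groups. AT3G47380 (0.85), AT2G33170 (0.849), UGT73D1, a glycosyltransferase gene (0.846), and AT1G26380, an oxidoreductase gene of indole-derived defence compounds (0.846), followed. By rho the rank of AT1G26380 was 109. UGT73D1 had a mean of 8.59 in mil4 with BTH and 6.76 in Col with BTH. AT3G28580, UGT73D1 and AT5G66890 reached the required group mean of 7 only in mil4 with BTH. Their peak there is thus partly set by that filter and by the ranking on r.

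**Figure D4:**
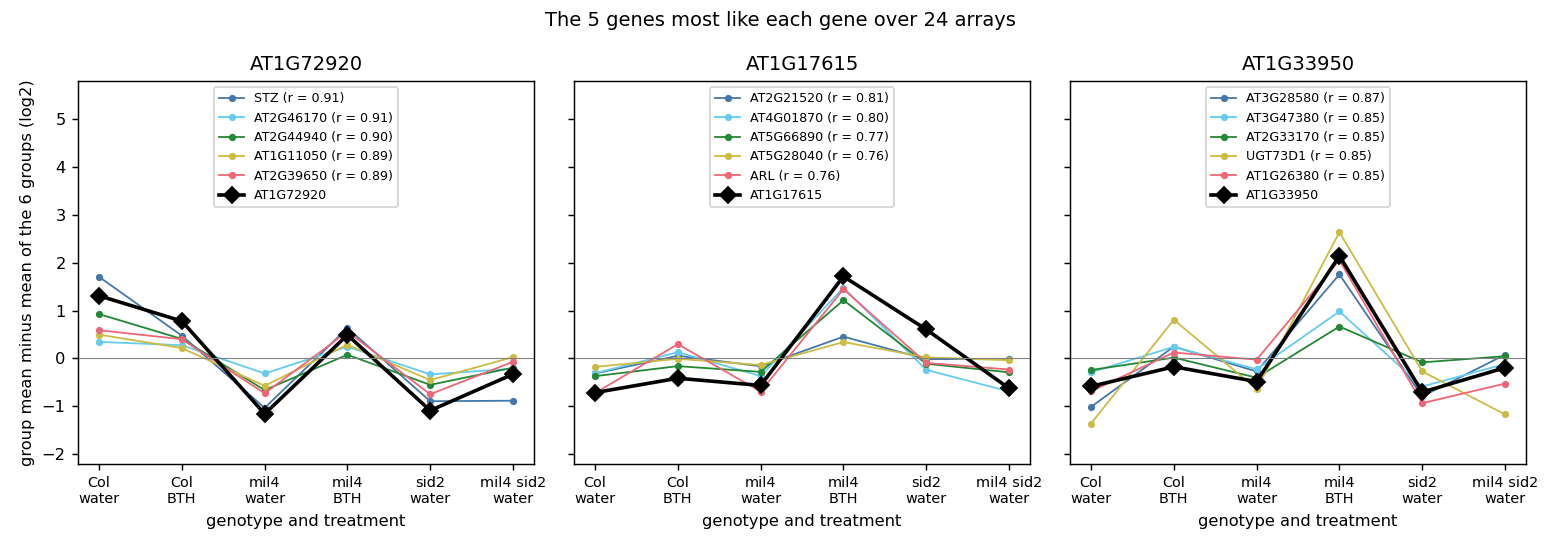
Group means, each gene centred on its mean over the 6 groups (log2), for the described genes (black) and the 5 genes with the highest Pearson's r to each over 24 arrays. STZ follows AT1G72920 with low values in the water-treated mutants, and the genes in the other panels peak in mil4 with BTH. Ranking by r selects such shapes.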

How the data were processed

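RNA of rosettes was measured on 24 ATH1 arrays, and the sample titles gave genotype, treatment and replicate number. The authors deposited probe-set intensities on a linear scale. Every column had a 2% trimmed mean of 500, so a scaling had been applied. The software and the background correction are not stated by the sources used here, and detection calls were not used. Hybridization day and fluidics module were taken from the file headers of 1 settings file per array. The run is not a header value. It was derived here by grouping arrays whose hybridization times in those headers followed closely on one another.

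Computed here were log2(intensity + 16), so folds of dim probe sets are understated, and differences from limma 3.58.1 (R 4.3.3; a mean for each group fitted by lmFit to all 24 arrays, then contrasts.fit and eBayes, 2-sided). Benjamini-Hochberg adjustment ran over 22746 probe sets within each of 9 comparisons (threshold 0.05), after 64 control probe sets were left out. The design had allowed for log2 values, and its fallback for linear ones was used. The number of arrays limits the precision. The code was tested on simulated data. Figures were drawn with matplotlib 3.10.9 and pandas 2.3.3 in Python 3.11.15.

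In the platform annotation 13513 probe sets carry a single gene and 503 carry several, while 8730 are unnamed here, and 13436 of the 13513 matched RefSeq TAIR10.1, used for names and gene order. Each listed gene had 1 probe set. The members of the TIR and IAN lists come from general knowledge of the families, not from a domain annotation. The described genes and the lists were chosen with earlier results of these data known, so the 3 genes carry no p-value. Named were these 3, the 5 genes most like each by Pearson's r (highest group mean of at least 7 on the log2 scale), all measured TIR or IAN genes of the clusters that hold a described gene, and up to 4 per other list and comparison with the largest called difference. Other genes were named after their values were seen.

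Same-numbered arrays were checked for pairing by correlating their deviations from the group means over 12809 probe sets. All 4 pairs of Col arrays with water and BTH had r over 0.1 (0.15 to 0.28) and shared a hybridization run, so a fit of the Col arrays alone with the replicate as a block was added after the data were seen. In it 8 TIR and IAN genes passed, 7 of them among the 11 of the fit without the block, and 1057 probe sets in all. In the other comparisons fewer pairs exceeded 0.1. Alternatives were the added constant, quantile normalization, a filter on dim probe sets, array weights, the groups in the fit, day, run or module as a block, the replicate block and leaving out each array.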

Additional observations from a re-analysis of the deposited data

Results flagged for a closer look

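On 16 of 138 gene and group combinations tested (23 genes in 6 groups), 1 array stood apart from the other 3 by Dixon's criterion, which chance meets in about 1 of 20. All values here are log2 levels. For the described genes, AT1G72920 in mil4 with water had 5.27 on replicate 3, against 6.19 to 6.38 on the others. AT1G17615 had 4.41 on replicate 3 of Col with water (others 4.09 to 4.12) and 4.88 on replicate 1 of mil4 with water (others 4.08 to 4.19), all at the dim end of the scale. AT1G33950 had 5.07 on replicate 1 of Col with BTH (others 5.51 to 5.58) and 4.48 on replicate 2 of sid2 (others 5.02 to 5.05).

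In the TIR run, replicate 1 of Col with water was high for AT1G72840 (6.07, others 5.58 to 5.63) and AT1G72850 (6.23, others 5.63 to 5.71). AT1G72860 had 6.73 on replicate 4 of mil4 with BTH (others 5.87 to 5.98), and without it the call of AT1G72860 with BTH in mil4 was lost (adjusted p = 0.0936). AT1G72950 had 7.14 on replicate 1 of Col with BTH (others 6.45 to 6.54).

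Among IAN genes, replicate 3 of mil4 sid2 stood high for AT4G09930 (6.17, others 4.22 to 4.42) and AT4G09940 (5.62, others 4.1 to 4.26). Replicate 1 of Col with BTH stood high for AT1G33870 (5.47, others 4.2 to 4.36) and AT1G33830 (4.4, others 4.22 to 4.23). Replicate 2 stood low for AT1G33930 in Col with water (4.92, others 6.39 to 6.54) and in mil4 with water (4.26, others 5.71 to 5.87). AT1G33890 had 5.56 on replicate 4 of mil4 with BTH (others 5.17 to 5.21).

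Effects that differed between groups by limma's interaction test were found for 8 related genes. The response to BTH was higher in mil4 than in Col for AT1G66090, by 1.87 (adjusted p = 0.00502), and AT1G72900, by 1.66 (adjusted p = 0.0459). The mil4 by sid2 interaction was 2.24 for AT1G72940 (adjusted p = 5.15e-05), 1.56 for AT1G72900 (adjusted p = 0.0208), 1.32 for AT1G72950 (adjusted p = 0.0316), 0.99 for AT5G40060 (adjusted p = 0.0113) and 0.95 for AT4G16880 (adjusted p = 0.0442). It was -0.84 for AT1G17600 (adjusted p = 0.0308) and -1.34 for AT4G19530 (adjusted p = 0.0174).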

How the results depend on the processing

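The added constant moved the differences most, since the described genes are dim in some groups. With a constant of 1, AT1G17615 had 1.18 for BTH in Col, 4.32 for BTH in mil4, 3.63 for mil4 against Col with BTH, 3.14 for the difference of responses, 3.38 for sid2 against Col, -2.87 for mil4 sid2 against sid2 and -3.36 for the mil4 by sid2 interaction. AT1G33950 had 3.58 for BTH in mil4 and AT1G72920 3.76 for the mil4 by sid2 interaction. With 64, in the same order of comparisons, AT1G17615 had 1.12 for BTH in mil4, 1.08, 1.03, 0.5, -0.48 and -0.53. AT1G72920 had -1.85 for mil4 and -1.81 for sid2 against Col, 1.15 for BTH in mil4, 1.61 for the difference of responses and 2.33 for the mil4 by sid2 interaction. AT1G33950 had 1.66 for BTH in mil4, 1.54 for mil4 against Col with BTH and 1.5 for the difference of responses. With the run as a block, AT1G17615 had 0.67 for mil4 against Col with water and 2.65 with BTH.

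The counts of other TIR and IAN genes called moved as follows. For BTH in Col (11 called) the module block left 2. For BTH in mil4 (25) the module block left 7 and the filter on dim probe sets 15. For mil4 against Col with water (6) the run block left 1, and with BTH (3) the run block left 1, a constant of 64 gave 6 and a fit of these groups alone 0. For the difference of responses (2), a constant of 1 and the fit of these groups alone gave 1. For sid2 against Col (17), the module block and the fit of these groups alone gave 11. For mil4 sid2 against mil4 (6), the module block and the dim filter gave 2 and array weights 10. For mil4 sid2 against sid2 (0), quantile normalization and array weights gave 1. For the mil4 by sid2 interaction (7), the module block and the fit of these groups alone gave 4 and array weights 11. The cause of these shifts was not tested, except that the dim filter and the fits of fewer groups test fewer genes or use fewer arrays.

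Leaving out 1 array at a time gave these ranges of counts. They were 3 (without Col water replicate 3) to 7 for mil4 against Col with water, 1 to 3 with BTH (1 without Col BTH replicate 1, 3 or 4 or mil4 BTH replicate 3 or 4), 1 to 3 for the difference of responses (1 without any of 12 arrays), 2 to 6 for mil4 sid2 against mil4 (2 or 3 without mil4 water replicate 1 or 4 or mil4 sid2 replicate 2 or 4), 0 to 1 for mil4 sid2 against sid2 (1 without mil4 sid2 replicate 1) and 4 to 9 for the mil4 by sid2 interaction (4 without Col water replicate 1 or mil4 water replicate 2). No difference of the 3 genes moved by more than the spread between replicates. The replicate block over all groups moved none of 36 results beyond that spread or 1.5 times, the day block none of 24. In the added fit of the Col pairs with the replicate block, BTH in Col gave -0.53, 0.3 and 0.41 for AT1G72920, AT1G17615 and AT1G33950, and 8 related genes passed in place of 11; AT1G63880, AT3G44630, AT5G46450 and AT5G58120 lost their calls (adjusted p = 0.0607, 0.0774, 0.112 and 0.0777). Averaging the probe sets of a gene was not run, as each listed gene has 1, and day or run blocks could not be fitted where the day holds only sid2 genotypes. The dim filter kept only probe sets above the median level and removed all 3 described genes, so it gave no value for any of them. Intensities under 16 have no reliable order.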
